A study of Homo sapiens with 12 samples.

Results

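The genes described are the subunits of the AP-1 transcription factor: FOS, FOSB, FOSL1 and FOSL2 of the FOS family, JUN, JUNB and JUND of the JUN family, and ATF3. They were taken by gene symbol from the table of counts. All 8 were found among its 22545 symbols, and all 8 were among the 14207 genes that passed the filter on low counts. Expression had been measured by RNA sequencing of total RNA from HaCaT cells, an immortalised human keratinocyte line with the genotype WT. The 12 libraries formed 4 groups with 3 libraries each. One group was untreated, another received M5, and the remaining groups received M5 together with either lefamulin or retapamulin. Every compound library therefore also had M5, and no group had a compound alone. M5 commonly stands for a cocktail of inflammatory cytokines used to give keratinocytes a psoriatic pattern; the sources used here give neither its components nor any dose, time or solvent. Lefamulin and retapamulin are pleuromutilins, antibiotics that bind the bacterial ribosome; they share the tricyclic pleuromutilin core and differ in its side chain. The comparisons ask what M5 does to these genes and what each compound does in its presence.

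AP-1 is a dimer of proteins with a basic leucine zipper. JUN proteins pair with each other or with FOS proteins, FOS proteins need a JUN partner to bind DNA, and the dimers recognise a short palindrome, the TPA response element. ATF3, a stress-induced relative, pairs with JUN proteins and favours the closely related cyclic AMP response element. In keratinocytes AP-1 takes part in the control of proliferation, differentiation, matrix proteases and inflammatory genes, and JUNB has been linked to psoriasis through mouse models. Much of AP-1 activity is set by phosphorylation and protein turnover, which mRNA counts do not measure.

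The libraries held 35110519 to 37520999 counts each, with counts in 17009 to 17955 genes, and the labels give the same batch entry for all of them. The labels do not say that the 3 libraries of a group came from separate cultures, so the p-values measure the spread between these libraries, which may be technical. The text of the labels on RNA extraction speaks of mouse epidermis, which goes against the HaCaT source given for every sample. Length-normalised levels are given in FPKM, fragments per kilobase of gene scaled to the total count of the library. FPKM lacks the further scaling between libraries used in the tests below. Of 9 keratinocyte markers, 9 exceeded 1 FPKM in untreated and M5 libraries and 8 did with either compound. KRT5 was at 800 ± 21.0 FPKM in untreated cells (SD, n = 3), and KRT14, the usual partner of KRT5, at 5.72 ± 0.341 FPKM. KRT5 was at 288 ± 11.3 FPKM with M5, 199 ± 3.83 with lefamulin and 179 ± 3.60 with retapamulin, and KRT14 at 2.12 ± 0.197, 0.476 ± 0.0901 and 0.411 ± 0.157 FPKM. The summed level of the 9 was 1479 to 1546 FPKM in untreated cells and 1080 to 1156 with M5. It was 1729 to 1812 FPKM with lefamulin and 1963 to 2003 with retapamulin. By the edgeR test used below, 6 of the 9 were called higher and 3 lower in retapamulin than in untreated libraries. Of all genes, 37.6% and 40.9% were. SFN was at 391 ± 23.4 FPKM in untreated cells and 1036 ± 18.0 with retapamulin. The leukocyte marker PTPRC and the endothelial marker PECAM1 had 0 or 1 count in each of the 12 libraries. CD68, a lysosomal protein counted here among 6 immune markers, was the 1 such marker over 1 FPKM in any group, and the summed level of the 6 was 7.82 to 9.02 FPKM in untreated cells, 17.5 to 18.6 with M5, 22.7 to 24.5 with lefamulin and 40.8 to 45.5 with retapamulin. CDH5 accounted for nearly all of the summed endothelial markers, which were at 3.81 to 4.40 FPKM in untreated cells and at 22.3 to 29.9 FPKM in the other groups. The summed fibroblast markers were between 0.947 and 2.80 FPKM and the melanocyte markers between 1.89 and 5.24 FPKM. COL1A1, the 1 fibroblast marker over 1 FPKM, was at 1.37, 1.04, 2.62 and 1.58 FPKM on average in untreated, M5, lefamulin and retapamulin libraries, and the melanocyte marker MITF at 4.25, 1.59, 2.19 and 2.90 FPKM. KRT5, KRT14, CD68, CDH5, COL1A1 and MITF thus moved with the treatments, and their part in the results was not tested. In bulk RNA, a change in the number of cells of a type and a change in RNA per cell cannot be told apart.

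RefSeq's promoter sequences (build GRCh38.p14) held 7 of the 8 genes, in 8 windows, since ATF3 had 2 starts; FOSL1 had no entry. The windows run from 250 bases before the annotated start to 30 bases after it and are printed 5′ to 3′ on the gene's own strand. The 5 windows below belong to the 4 genes with the largest rises among the members with a window under retapamulin and to FOSL2, the 1 member that moved the other way with the compounds. They lie at chr14:75278578-75278857 (plus strand) for FOS, chr19:45467746-45468025 (plus strand) for FOSB, chr2:28392608-28392887 (plus strand) for FOSL2, chr1:58784018-58784297 (minus strand) for JUN and chr1:212565157-212565436 (plus strand) for the upstream ATF3 start. The counts do not show which ATF3 start was used. Capitals mark matches to TGANTCA, which takes in the TPA response element, and to TGACNTCA, which takes in a cyclic AMP response element. They also mark TGACG, a shorter form that can lie inside TGACNTCA. Both strands were searched. N stands for any base, so the patterns with N are looser than the elements.
FOS: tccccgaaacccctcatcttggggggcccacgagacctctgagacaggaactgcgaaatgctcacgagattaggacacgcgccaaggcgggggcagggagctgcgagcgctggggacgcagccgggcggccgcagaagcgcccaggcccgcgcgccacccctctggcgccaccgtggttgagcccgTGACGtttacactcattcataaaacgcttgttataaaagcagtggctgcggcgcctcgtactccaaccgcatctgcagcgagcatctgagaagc
FOSB: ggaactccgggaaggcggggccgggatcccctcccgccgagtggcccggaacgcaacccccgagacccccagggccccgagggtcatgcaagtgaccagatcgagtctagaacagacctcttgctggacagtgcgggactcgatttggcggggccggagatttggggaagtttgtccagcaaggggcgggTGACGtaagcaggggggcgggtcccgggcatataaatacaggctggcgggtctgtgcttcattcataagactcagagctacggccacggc
FOSL2: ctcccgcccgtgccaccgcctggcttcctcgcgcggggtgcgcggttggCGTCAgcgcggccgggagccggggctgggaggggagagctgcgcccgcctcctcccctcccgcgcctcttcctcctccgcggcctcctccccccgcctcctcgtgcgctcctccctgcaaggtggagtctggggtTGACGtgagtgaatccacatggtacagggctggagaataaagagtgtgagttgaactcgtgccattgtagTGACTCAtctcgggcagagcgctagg
JUN: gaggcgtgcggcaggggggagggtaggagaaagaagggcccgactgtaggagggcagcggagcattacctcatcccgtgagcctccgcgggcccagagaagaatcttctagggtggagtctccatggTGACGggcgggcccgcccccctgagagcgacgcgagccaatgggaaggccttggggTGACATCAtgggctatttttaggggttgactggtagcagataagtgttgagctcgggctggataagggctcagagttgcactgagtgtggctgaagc
ATF3: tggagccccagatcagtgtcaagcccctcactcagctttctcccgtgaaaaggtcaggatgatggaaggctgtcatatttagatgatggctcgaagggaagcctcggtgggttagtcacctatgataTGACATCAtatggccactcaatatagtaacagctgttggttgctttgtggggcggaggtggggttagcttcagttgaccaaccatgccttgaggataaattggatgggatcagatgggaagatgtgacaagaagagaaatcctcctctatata

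These motifs were chosen after the sequences had been read, and a match is a description of letters, not of a bound site. TGANTCA was found in the FOSL2 window alone, as TGACTCA, 5 bases after the start; 7.35% of 35116 promoter windows of the same length hold it. TGACNTCA was found in 3 genes: as TGACATCA 67 bases before the start of JUN and 123 bases before the upstream start of ATF3, and as TGACGTCA 200 bases before that of JUND. Among all windows 7.48% hold it. TGACG occurred in 6 genes, 64 bases before the start of FOS and 60 before that of FOSB, and in 23.5% of all windows. A CArG box, the site that serum response factor binds, was in 0 of the 8 windows and in 1.25% of all windows. Sequence outside the windows was not searched, so this count does not show that FOS or any other member lacks such a site.

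In untreated HaCaT cells the AP-1 mRNA pool was mostly JUNB, FOSL1 and JUND. Their levels were 57.7 ± 2.94 FPKM for JUNB, 37.4 ± 1.38 for FOSL1 and 28.2 ± 1.58 for JUND (SD, n = 3 here and in what follows). FOSL2 at 7.12 ± 0.402 FPKM and JUN at 6.60 ± 0.175 came next, and their libraries overlapped. ATF3 stood at 4.42 ± 0.424 FPKM. FOS at 0.946 ± 0.143 FPKM and FOSB at 0.776 ± 0.194 were lowest and overlapped as well. FOS and FOSB were thus the least abundant of the 8. They had 63 to 86 counts per library for FOS and 79 to 127 for FOSB, while FOSL1 had 2248 to 2291.

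With M5 the order of the 8 genes by FPKM was the same as in untreated cells, and no neighbouring pair overlapped. JUNB led at 122 ± 6.05 FPKM, and FOSL2 had moved to 33.8 ± 0.400, close below JUND at 41.9 ± 1.03. With either compound FOSL1 took the first place from JUNB. In lefamulin libraries FOSL1 was at 239 ± 4.13 FPKM and JUNB at 150 ± 4.56, and in retapamulin libraries at 362 ± 14.2 and 172 ± 1.21. JUN also passed FOSL2 in both compound groups. FOS and FOSB stayed at the bottom of the order, at 7.13 to 9.71 FPKM over the 6 compound libraries. Their ranges overlapped with lefamulin and not with retapamulin, where FOS was the higher.

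**Figure D1:**
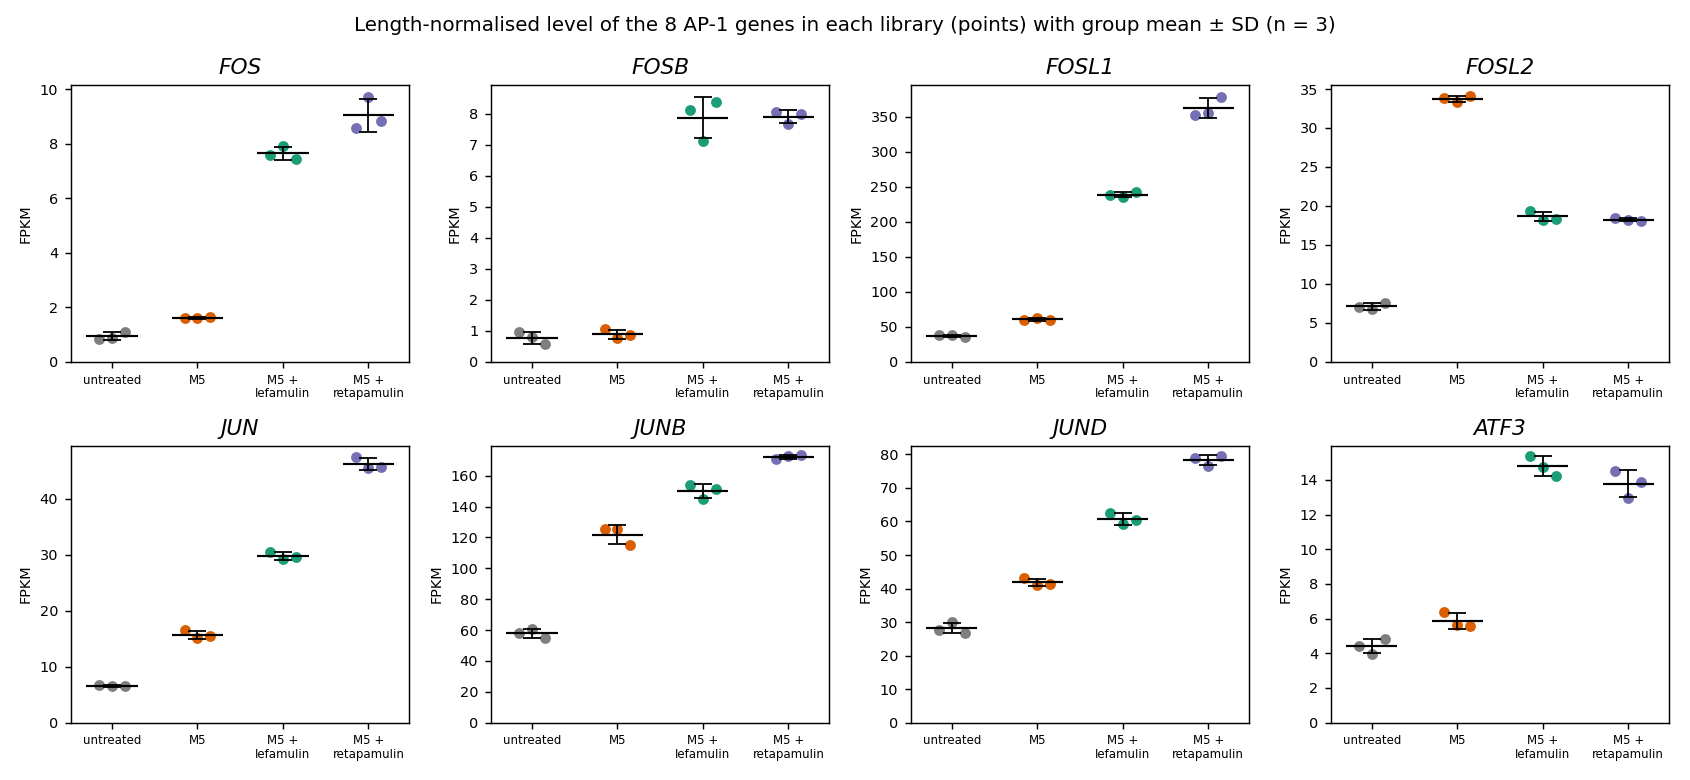
Level in FPKM (vertical axis, linear, from 0, scaled for each gene) of the 8 AP-1 genes in untreated, M5, M5 with lefamulin and M5 with retapamulin libraries; points are libraries, the long bar is the mean and the whisker the SD (n = 3). FOSL2 peaks with M5 at 33.8 FPKM on average, while the other 7 genes have higher means with both compounds than with M5.

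Set against untreated cells, M5 raised 7 of the 8 genes by edgeR's quasi-likelihood test (adjusted p under 0.05 over all 14207 genes), and 0 were called lower. Over all genes tested 28.3% were called higher. None of the 8 was lower at an unadjusted p under 0.05 either (0 genes), and DESeq2 called 0 lower. At least 2-fold rises were called for 3 members, FOSL2, JUN and JUNB, against 5.07% of all genes. The libraries of the groups did not overlap for 7 members, against 59.2% of all genes. The median log2 fold change of the 8 was 0.85, and that of all genes -0.02. The share of higher calls among all calls was 51.3%, and 31.5% when libraries were scaled by their totals alone, a scaling that moves the median of all genes to -0.14; the 7 members stayed called higher under it.

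Adding lefamulin to M5 raised 7 members and lowered 1, FOSL2, relative to M5 alone. Of all genes tested, 33.6% were called higher and 34.3% lower. Rises of at least 2-fold were called for 4 members, FOS, FOSB, FOSL1 and ATF3, against 9.09% of all genes. The median log2 fold change was 1.18 for the members and -0.00 for all genes. Retapamulin gave the same split of 7 raised and 1 lowered, where 34.1% of all genes were called higher and 38.0% lower. Here 6 members rose at least 2-fold, against 9.81% of all genes, and the medians were 1.53 and -0.05. In both comparisons each of the 8 members had groups with no overlap, as did 71.2% of all genes with lefamulin and 73.8% with retapamulin. The 2 comparisons share the 3 M5 libraries, so their likeness is no independent evidence.

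**Figure D2:**
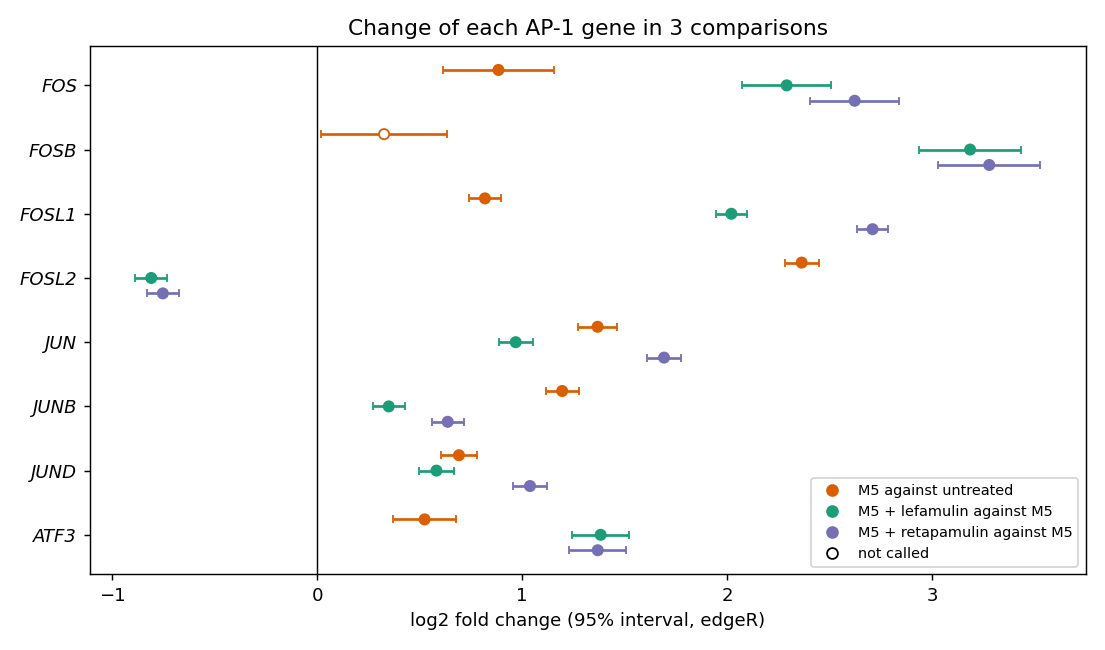
log2 fold change (horizontal axis) of each AP-1 gene for M5 against untreated, M5 with lefamulin against M5 and M5 with retapamulin against M5; points are edgeR estimates from 3 libraries a group, lines are 95% intervals and the open point was not called. FOSL2 lies at 2.36 for M5 and at -0.81 and -0.75 for the compounds, while the compound values of the other 7 genes run from 0.35 to 3.28.

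FOS, the founding partner of JUN and an immediate early gene, rose from a low level. Its CPM (counts normalised for depth with TMM factors, used for all values by library) was 1.61, 1.69 and 2.15 in untreated cells and 3.31, 3.30 and 3.46 with M5. It reached 16.3, 17.0 and 16.0 CPM with lefamulin and 19.4, 22.3 and 20.3 CPM with retapamulin. The 4 groups were thus fully separated, with the retapamulin libraries highest. M5 raised FOS by a log2 fold change of 0.88 (SE 0.13, adjusted p = 2.81e-06). Against M5, the change was 2.29 (SE 0.10, adjusted p = 9.16e-16) with lefamulin and 2.62 (SE 0.10, adjusted p = 3.85e-17) with retapamulin, or 4.89-fold and 6.16-fold in mean CPM. Of all genes tested, 1.98% rose more than FOS with lefamulin and 1.49% with retapamulin.

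FOSB, which lends its name to a stable truncated splice form, did not pass the test with M5. In untreated cells it was at 3.25, 2.78 and 1.97 CPM and with M5 at 3.93, 2.86 and 3.22 CPM, so the groups overlapped. The log2 fold change was 0.33 (95% interval 0.02 to 0.63, adjusted p = 0.0657), which was not called. It was called without untreated library 1 (adjusted p = 0.0115), without M5 library 2 (0.0265), without the filter on low counts (0.0198) and by DESeq2 (0.0361), and its adjusted p ran from 0.0115 to 0.474 over 22 alternatives.

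With the compounds FOSB showed the largest rise among the 8 genes. Its levels were 31.2, 27.5 and 32.4 CPM with lefamulin and 32.7, 31.6 and 32.9 CPM with retapamulin. These 6 libraries lay far above all untreated and M5 libraries. The log2 fold change against M5 was 3.18 (SE 0.12, adjusted p = 1.01e-17) with lefamulin and 3.28 (SE 0.12, adjusted p = 3.63e-18) with retapamulin, or 9.11-fold and 9.71-fold in mean CPM. Of the genes tested, 0.683% rose more with lefamulin and 0.831% with retapamulin. Counts per gene do not separate the full-length from the truncated form. FOSB also overlaps ERCC1 on the other strand, and the sources used here do not say whether counting used strand. ERCC1 itself moved by 0.99 with lefamulin and 1.09 with retapamulin on the log2 scale.

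FOSL1 encodes FRA1, a FOS protein without the transactivation domain of FOS and a known product of sustained ERK signalling. It was at 58.6, 59.4 and 56.2 CPM in untreated cells and at 101, 105 and 101 CPM with M5. With lefamulin it reached 413, 408 and 424 CPM, and with retapamulin 644, 660 and 703 CPM. Each group lay wholly above the one before it. The log2 fold change was 0.82 (SE 0.04, adjusted p = 3.82e-15) for M5, then 2.02 (SE 0.04, adjusted p = 1.11e-23) for lefamulin and 2.71 (SE 0.04, adjusted p = 3.22e-26) for retapamulin against M5. In mean CPM the compound libraries stood 4.06-fold and 6.54-fold above M5. In both compound groups it had the highest FPKM of the 8 genes.

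FOSL2, which encodes FRA2, went the other way with the compounds. It had 55.8, 54.1 and 61.1 CPM in untreated cells and 294, 287 and 300 CPM with M5. With lefamulin it had 173, 164 and 165 CPM, and with retapamulin 174, 175 and 174 CPM. M5 libraries were the highest and untreated libraries the lowest, with all 6 compound libraries between them. The M5 rise was the largest among the 8 genes, at 2.36 on the log2 scale (SE 0.04, adjusted p = 3.74e-24) or 5.15-fold, and 1.96% of all genes rose more. Against M5, FOSL2 fell by 0.81 with lefamulin (SE 0.04, adjusted p = 2.33e-15) and fell by 0.75 with retapamulin (SE 0.04, adjusted p = 6.92e-15). It remained 2.94-fold and 3.05-fold above untreated cells. Of all genes, 7.93% fell more than FOSL2 with lefamulin and 14.6% with retapamulin. An antisense transcript and a sense intronic transcript are annotated within FOSL2, so some of its counts are uncertain.

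JUN, the classical partner of FOS, rose in each step. It was at 20.0, 19.2 and 19.6 CPM in untreated cells and 53.2, 48.2 and 50.3 CPM with M5. Lefamulin libraries held 101, 97.1 and 98.6 CPM and retapamulin libraries 166, 162 and 162 CPM. The groups did not overlap, and replicates lay close together. M5 raised JUN by 1.37 (SE 0.05, adjusted p = 3.30e-18) on the log2 scale. Against M5 the change was 0.97 (SE 0.04, adjusted p = 2.09e-16) with lefamulin and 1.69 (SE 0.04, adjusted p = 1.71e-21) with retapamulin.

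JUNB, a JUN protein that often acts in opposition to JUN, had its larger step with M5. Its libraries were at 95.6, 101 and 92.2 CPM untreated and at 227, 224 and 210 CPM with M5. The compound libraries were at 287, 271 and 285 CPM with lefamulin and at 336, 346 and 346 CPM with retapamulin. There was no overlap between groups. The log2 fold change was 1.19 (SE 0.04, adjusted p = 1.89e-18) for M5, and against M5 it was 0.35 (SE 0.04, adjusted p = 1.15e-08) with lefamulin and 0.64 (SE 0.04, adjusted p = 1.22e-13) with retapamulin. The lefamulin value was the smallest called rise of a member in that comparison, and 27.9% of all genes rose more. JUNB overlaps HOOK2 on the other strand, which moved by 0.36 and 0.38 with the compounds.

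JUND, the most steadily expressed JUN protein in many cell types, rose least with M5 among the JUN genes. It stood at 48.3, 52.6 and 47.7 CPM in untreated cells and at 82.2, 77.8 and 79.9 CPM with M5. It stood at 123, 117 and 120 CPM with lefamulin and 164, 161 and 168 CPM with retapamulin. Each group was again apart from the others. The log2 fold change was 0.69 (SE 0.04, adjusted p = 7.06e-13) for M5, 0.58 (SE 0.04, adjusted p = 4.58e-12) for lefamulin and 1.04 (SE 0.04, adjusted p = 3.41e-17) for retapamulin. JUN, JUNB and JUND have a single exon, so their counts cannot be told from genomic DNA by splicing.

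ATF3, a target of the integrated stress response as well as of JNK signalling, rose 1.44-fold with M5 and further with the compounds. Its values were 11.5, 10.4 and 12.7 CPM in untreated cells and 18.1, 15.8 and 16.0 CPM with M5. They were 45.0, 43.2 and 41.8 CPM with lefamulin and 44.6, 40.6 and 43.5 CPM with retapamulin. The compound groups overlapped each other and neither overlapped M5. M5 raised ATF3 by 0.52 (SE 0.07, adjusted p = 2.00e-06), the smallest called rise in that comparison. Against M5 it rose by 1.38 (SE 0.07, adjusted p = 3.98e-15) with lefamulin and by 1.37 (SE 0.07, adjusted p = 3.80e-15) with retapamulin, 2.61-fold and 2.58-fold in mean CPM. Gene counts do not separate the isoforms of ATF3.

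Compared with untreated cells, all 8 genes were called higher by at least 2-fold with M5 and lefamulin together, and the same held for M5 and retapamulin. The share of all genes called higher was 36.9% with lefamulin and 37.6% with retapamulin, and 12.4% and 13.3% were called higher by at least 2-fold. No member was called lower by edgeR in either, where 37.1% and 40.9% of all genes were (0 at an unadjusted p under 0.05, 0 by DESeq2). With lefamulin the log2 fold changes ran from 1.27 for JUND to 3.51 for FOSB, and with retapamulin from 1.61 for FOSL2 to 3.60 for FOSB. FOS and FOSL1 stood at 11.4-fold and 11.5-fold the untreated mean with retapamulin. These comparisons share the untreated libraries with each other and with that of M5. Of the calls over all genes, 49.9% were higher with lefamulin and 47.8% with retapamulin, and 38.6% and 33.7% under library totals alone, which moves the median of all genes to -0.18 and -0.31.

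The 2 compounds were compared directly, as the 1 pair of related molecules in the study; without a stated dose or time, it is not known whether they were matched. Retapamulin gave higher levels of 5 members, FOS, FOSL1, JUN, JUNB and JUND, where 21.2% of all genes were called lower with lefamulin. No member was called higher with lefamulin by edgeR (0 at an unadjusted p under 0.05, 0 by DESeq2), against 18.8% of all genes. As log2 differences, lefamulin minus retapamulin, JUN stood at -0.72 (SE 0.04, adjusted p = 3.98e-13) and FOSL1 at -0.69 (SE 0.03, adjusted p = 1.35e-13). JUND at -0.46 (adjusted p = 2.73e-09), FOS at -0.33 (adjusted p = 0.00426) and JUNB at -0.29 (adjusted p = 1.38e-06) followed. JUN was thus 1.65-fold and FOSL1 1.61-fold higher with retapamulin, and 2.10% and 2.31% of all genes differed more in that direction.

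For FOSB, FOSL2 and ATF3 the compounds were not told apart. The log2 difference was -0.09 for FOSB (95% interval -0.28 to 0.09, adjusted p = 0.442) and 0.01 for ATF3 (-0.11 to 0.14, adjusted p = 0.885). For FOSL2 it was -0.06 (-0.14 to 0.02, adjusted p = 0.259), with no overlap between the CPM of the groups. DESeq2 called that difference (adjusted p = 0.0396), and the sign for FOSL2 and ATF3 turned under other settings. The groups did not overlap for 6 of the 8 members, against 52.0% of all genes. Among all calls 47.0% were higher with lefamulin, and 72.8% under library totals alone (median of all genes 0.10, against 0.01) and 36.8% under RLE scaling; the 5 members kept their call and direction under both.

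The make-up of the pool changed with the treatments. The summed FPKM of the 8 genes was 143 ± 4.89 in untreated cells, 282 ± 7.86 with M5, 528 ± 10.5 with lefamulin and 707 ± 15.2 with retapamulin. FPKM is scaled by library totals without TMM factors, so these sums are not on the CPM scale of the tests. Shares within a library do not depend on that scaling. As a share of that sum, FOSL1 held 25.9% to 26.5% in untreated libraries and 20.8% to 22.1% with M5. With lefamulin it held 44.5% to 45.6% and with retapamulin 50.4% to 52.1%. JUNB held 39.6% to 41.0% in untreated cells and 42.0% to 43.8% with M5. Its share was 28.1% to 28.7% with lefamulin and 23.9% to 24.8% with retapamulin. FOSL2 held 4.57% to 5.47% in untreated cells, 11.6% to 12.5% with M5, 3.44% to 3.62% with lefamulin and 2.49% to 2.64% with retapamulin. No 2 groups overlapped for any of these 3 shares. With 3 libraries against 3 the smallest exact permutation p is 0.1, so the shares are given as ranges with no test.

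**Figure D3:**
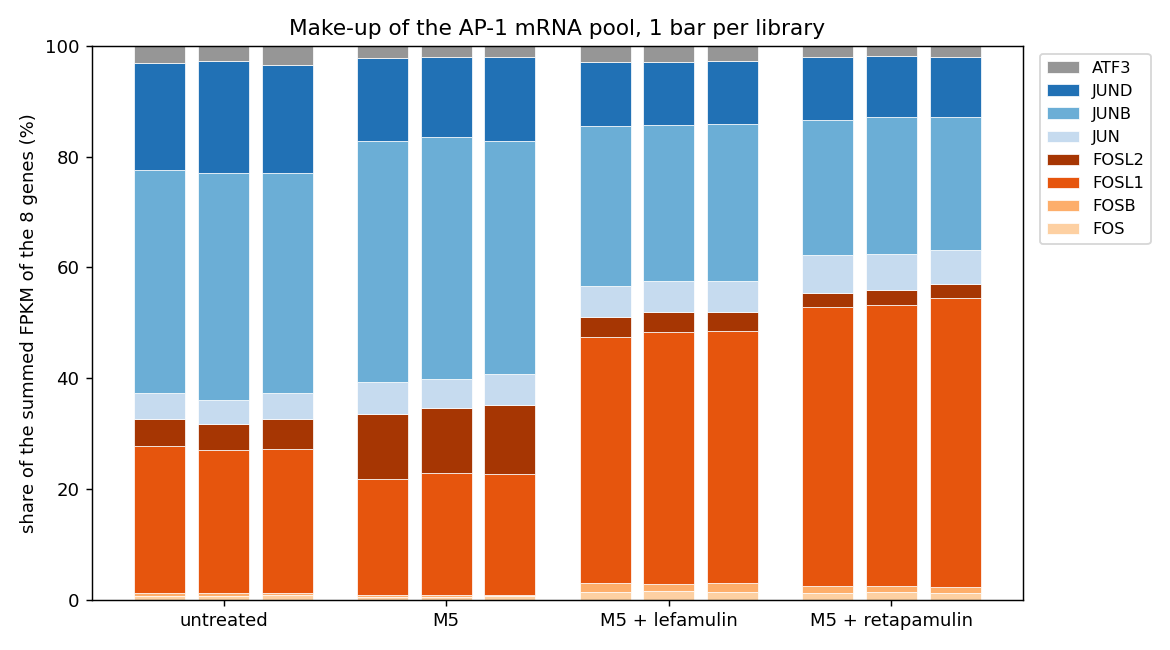
Share of each gene in the summed FPKM of the 8 AP-1 genes (vertical axis, percent, stacked from 0 to 100), 1 bar for each library, in 4 groups of 3. FOSL1 is at 20.8% to 26.5% in untreated and M5 libraries and at 44.5% to 52.1% with the compounds, and FOSL2 is widest with M5, at 11.6% to 12.5%.

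Taken by family, JUN genes made up 64.6% ± 0.944 of the sum in untreated cells and 63.5% ± 0.730 with M5, where the ranges overlapped. They made up 45.5% ± 0.472 with lefamulin and 42.0% ± 0.731 with retapamulin. FOS genes went from 32.3% ± 0.576 and 34.4% ± 0.833 to 51.7% ± 0.534 and 56.1% ± 0.784. The FPKM ratio of FOSL1 to FOSL2 was 5.28 ± 0.477 in untreated cells, 1.80 ± 0.0816 with M5, 12.8 ± 0.483 with lefamulin and 19.8 ± 0.965 with retapamulin, with no overlap between groups. The ratio of JUNB to JUN went from 8.75 ± 0.552 in untreated cells to 7.77 ± 0.453 with M5, 5.05 ± 0.0846 with lefamulin and 3.73 ± 0.111 with retapamulin. The ratio of FOS to FOSL1 was 0.0254 ± 0.00483, 0.0265 ± 0.00117, 0.0320 ± 0.00159 and 0.0250 ± 0.00210 in the same order, with the lefamulin libraries above those of M5 and retapamulin and overlapping the untreated ones. The shares rest on the gene lengths implied by the deposited FPKM, 8787 bases for FOSL2 and 1702 for FOSL1. As a share of summed counts, with no length in it, FOSL2 held 19.2% in untreated cells, 38.1% with M5, 14.3% with lefamulin and 10.8% with retapamulin.

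The shifts of the families and of JUNB depended on the scale. By counts the JUN family held 55.8% in untreated cells, 45.6% with M5, 42.6% with lefamulin and 41.7% with retapamulin, and the FOS family 40.3%, 52.3%, 53.7% and 55.7%. The larger step was thus between untreated and M5 by counts and between M5 and the compounds by FPKM. JUNB turned direction with M5: its count share was 31.4% to 33.5% in untreated libraries and 27.5% to 29.4% with M5, lower where its FPKM share was higher. The FOSL1 share kept its order of groups, at 19.6%, 13.3%, 35.4% and 41.6% by counts.

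Members with like profiles were found by the root mean square difference of log2 CPM, each centred on its own mean over the 12 libraries. The closest pairs among the 8 were FOS with FOSL1 (0.18) and JUNB with JUND (0.19), and the most distant was FOSB with FOSL2 (1.67). Among all other tested genes, ITGA2 (0.13) and NPC1 (0.15) were nearest to FOS. AADAC (0.20) and ACSS2 (0.25) were nearest to FOSB. FOSL1 was followed most closely by ZNF165 (0.07) and PLAU (0.10), the urokinase protease. NFKBIA, the inhibitor of NF-κB, was nearest to FOSL2 (0.15). JUN lay nearest to LAMB3 (0.09), a laminin-332 chain, and TRIB1 (0.11). JUNB lay nearest to SLCO4A1 (0.05) and CD44 (0.08), JUND to C2CD2L (0.05) and RNF19B (0.07), and ATF3 to DNMBP (0.07) and RNF145 (0.10). These distances describe 12 libraries in 4 groups, so 4 group means set most of each value.

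Other factors with a basic leucine zipper, some of which pair with AP-1 proteins, mostly rose too by the same test. Of 14 tested in a list of 18, 11 were called higher and 1 lower with M5, where 28.3% and 26.9% of all genes were. With either compound 9 were called higher and 2 lower. Of all genes, 33.6% and 34.3% were with lefamulin, and 34.1% and 38.0% with retapamulin. Without untreated library 3, under library totals alone and with limma the M5 count lower was 2. The list medians were 0.37, 0.45 and 0.75 on the log2 scale. MAFF, a small MAF protein, rose in all 3 comparisons, by 1.57, 1.42 and 1.64. JDP2, a repressor that pairs with JUN, fell by 0.86 with M5 and rose by 0.44 and 0.85 with the compounds. DDIT3, which encodes the stress factor CHOP, rose by 1.03 with lefamulin, and ATF5 fell by 0.53 and 0.75 with the compounds.

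The kinases that feed AP-1 had smaller median changes. Among 20 genes of MAP kinase cascades the medians were 0.17, 0.17 and 0.23 in the same order, with 11 higher and 3 lower for M5, 11 and 5 for lefamulin and 12 and 5 for retapamulin. Of all genes 28.3% were called higher and 26.9% lower for M5, 33.6% and 34.3% for lefamulin and 34.1% and 38.0% for retapamulin, shares that also stand beside the counts of the lists that follow. Under library totals alone and with limma the M5 count became 7 higher and 6 lower. MAP2K6, an upstream kinase of p38, went from 14.3 CPM in untreated cells to 1.14 with M5, a log2 change of -3.65 (SE 0.18). MAPK7, which encodes ERK5, rose by 0.64 and 0.83 with the compounds. A list of 12 genes took in serum response factor, its cofactors, MEF2A, MEF2D and related kinases. Of these, 8 rose and 1 fell with M5 (4 and 2 under library totals alone), and 9 and 10 rose and 1 fell with the compounds. A link of these genes to FOS transcription was not tested. ELK3, a ternary complex factor, was at 35.9 CPM in untreated cells, 102 with M5, 268 with lefamulin and 340 with retapamulin, and rose in all 3 comparisons. MRTFB fell by 0.27, 0.41 and 0.48.

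Most of the listed phosphatases that switch MAP kinases off were called higher in each comparison. Of 9 tested, 7 rose and 1 fell with M5, 6 and 1 with lefamulin (2 fell with limma) and 7 and 2 with retapamulin. DUSP5, which acts on ERK in the nucleus, had a mean of 23.0 CPM with M5, 172 when lefamulin was added and 271 when retapamulin was, log2 changes of 2.90 (SE 0.05) and 3.56 (SE 0.05). DUSP10, which acts on JNK and p38, fell by 0.68 with M5 and rose by 2.28 and 2.56 with the compounds. DUSP16 fell by 0.62 and 0.33 with the compounds. A list of 8 genes was drawn up for the degradation of JUN and FOS proteins. It took in TRIB1 and TRIB2, whose part in that degradation was not tested. Of the 8, 3 rose and 2 fell with M5 (1 without M5 library 1 and 4 under library totals alone fell), 3 and 3 with lefamulin and 4 and 3 with retapamulin. TRIB1 rose by 1.41, 1.14 and 1.65, and TRIB2 rose by 2.76 with M5 and fell by 1.11 and 1.93 with the compounds.

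Genes known as AP-1 targets did not move as 1 group. Of 13 tested matrix and inflammatory targets, in a list of 15, 11 rose and 1 fell with M5 (2 fell under library totals alone and with limma), and their median was 2.71. With lefamulin 9 rose and 3 fell, and with retapamulin 10 and 3. MMP10, a stromelysin, had 12, 3 and 4 counts in the untreated libraries and was at 5.68 CPM with M5, 30.9 with lefamulin and 52.0 with retapamulin. CSF2, the cytokine GM-CSF, rose by 2.58 and 3.93 against M5, and PLAU by 2.10 and 2.94. In contrast IL6 fell by 1.67 and 1.59, CXCL8 by 0.83 with either compound, and MMP13 by 0.36 and 1.07, after rises of 5.43, 7.22 and 5.05 with M5. FOSL2 and these 3 genes thus share the direction up with M5 and down with both compounds. By mean CPM, genes of other lists did too, among them TRIB2, DUSP16, NFE2L2, ATF5, MAP3K5 and TP63. The share of all genes with this pattern was not counted, and a link between FOSL2 and these genes was not tested.

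Of 6 tested differentiation targets in a list of 8, 3 rose and 2 fell with M5, 3 rose and 1 fell with lefamulin, and 3 rose with retapamulin. No gene of this list was called lower there by edgeR (1 at an unadjusted p under 0.05, 0 by DESeq2, 1 by limma and under library totals alone). The lefamulin count lower was 0 without lefamulin library 2 and 2 without lefamulin library 3, and the retapamulin count was 1 without M5 library 1, lefamulin library 2 or retapamulin library 2. When M5 and untreated libraries were fitted alone, 1 gene of the list was called higher. SPRR1A, a cornified envelope precursor, had 25, 5 and 5 counts in the M5 libraries, 210, 187 and 203 with lefamulin and 510, 558 and 566 with retapamulin, while IVL, which encodes involucrin, fell by 4.30 with M5 and had 4 to 15 counts in each compound library. Reads shared between SPRR paralogs could not be examined, so the SPRR values are uncertain.

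ATF3 was set beside a list of genes tied to the integrated stress response, the pathway that couples translation to stress. Of 12 tested besides ATF3, 9 rose and 2 fell with M5, 11 rose with lefamulin and 12 with retapamulin. No gene of the list was called lower with either compound by edgeR (0 at an unadjusted p under 0.05, 0 by DESeq2). The counts depend on how the list was drawn. It takes in CEBPB, and HSPA5 and XBP1 of the unfolded protein response. Among its genes with at least 5 CPM in a group, CEBPB and XBP1 rose most with M5, by 2.21 and 1.44. PSAT1 fell by 0.24 with M5. ATF4, DDIT3 and ATF5 were counted among the basic leucine zipper factors and not here. With both compounds ATF4 and DDIT3 had higher mean CPM than with M5, while ATF5 fell by 0.53 and 0.75. PPP1R15A, the phosphatase subunit GADD34, rose by 0.92, 1.80 and 2.25, and TRIB3 fell by 0.25 with M5 and rose by 1.60 and 1.92 with the compounds. The list medians were 0.76, 0.72 and 1.07, beside 0.52, 1.38 and 1.37 for ATF3.

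**Figure D4:**
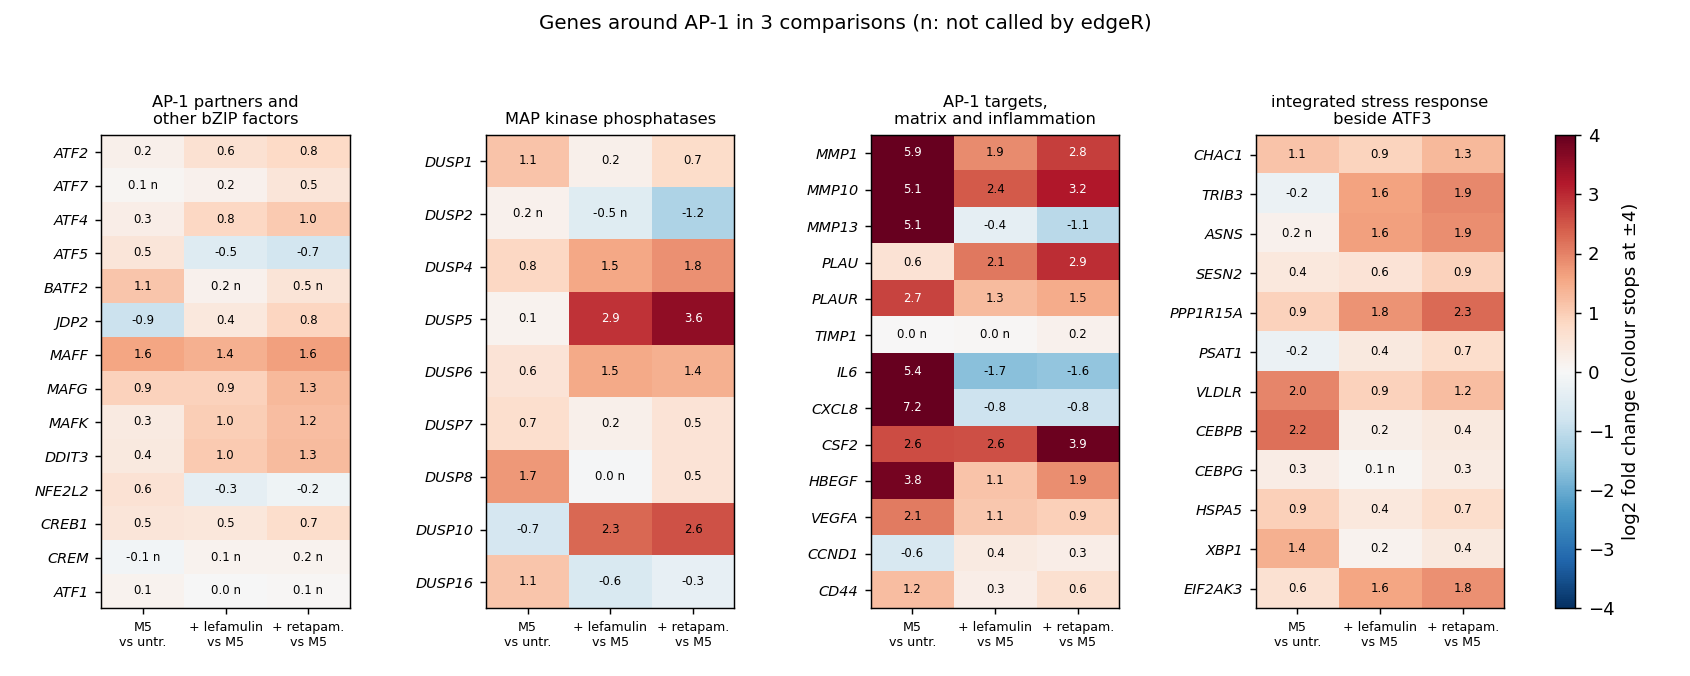
log2 fold changes (colour and printed value, n for not called by edgeR) of the tested genes in 4 of the lists, in rows, for M5 against untreated, lefamulin with M5 against M5 and retapamulin with M5 against M5, in columns. DUSP5 and DUSP10 rise with both compounds, and IL6, CXCL8 and MMP13 rise with M5 and fall with both compounds.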

How the data were processed

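RNA sequencing of 12 HaCaT libraries (4 groups of 3, by the labels' treatment) was used as deposited. The submitters' processing notes name HISAT2 and HTSeq; the sources used here give no version, build or strandedness. The authors deposited whole-number counts per gene symbol, not normalised, and FPKM for the same libraries. For all 20422 genes compared, dividing the count by a constant length and by the column total gave the deposited FPKM, with a coefficient of variation under 0.001, so FPKM shares the counts' depth. Library totals differed by at most 1.07-fold.

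The members and gene lists were chosen with earlier results of these data known. Genes were kept by filterByExpr and fitted with 1 mean per group over all 12 libraries (edgeR 4.0.16 in R 4.3.3, TMM scaling, quasi-likelihood test, Benjamini-Hochberg over 14207 genes, called at adjusted p under 0.05; 6 comparisons). SE and 95% intervals came from that fit. TMM factors moved with the groups, at 1.09 to 1.11 for untreated, 1.00 to 1.02 for M5, 0.975 to 0.982 for lefamulin and 0.915 to 0.931 for retapamulin. On simulated M5 against untreated counts of 13946 genes, the fit recovered 73% of 1.5-fold and 86.7% of 2-fold changes, and called 11 unchanged genes. Replicate libraries differed beyond sampling noise (chi-square over degrees of freedom 2.78 to 8.91).

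Named genes were all members, in each list up to 2 called genes that rose most and 2 that fell most (at least 5 CPM in a group), and the 2 genes nearest in profile to each member (1 of which is not reported here); KRT5, KRT14 and the other markers are named as marker values. Profiles used a prior count of 2. Alternatives were RLE scaling, library totals alone, no filter, a filter of 1 CPM in 3 libraries, DESeq2 1.42.0, fits of the 2 groups compared, a replicate block, limma 3.58.1 on log2 FPKM with pseudocounts of 1 and 0.1, and leaving out each library.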

Additional observations from a re-analysis of the deposited data

How the results depend on the processing

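Each member's fold change in 6 comparisons was recomputed under 22 alternatives: 1043 values kept direction and side of the threshold, 5 became called, 8 reversed and 0 lost a call. The 5 were FOSB for M5 against untreated, named in the report, and FOSL2 between the compounds with DESeq2 (-0.10). The 8 reversals were in lefamulin against retapamulin, in genes not called: FOSL2 at 0.0327 with library totals alone, 0.0304 with limma on log2 FPKM (pseudocount 1, with or without the filter) and 0.0319 (pseudocount 0.1), and ATF3 at -0.0209 with RLE and -0.0248 with DESeq2. ATF3 was at -0.0134 without lefamulin library 1 and -0.0249 without retapamulin library 2, in a range of -0.0249 to 0.0413 with 1 library left out. All 264 recomputed counts of called members stayed within 1.5 times.

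Counts over all genes moved more. For M5 against untreated, 4022 higher became 2675 with library totals alone and 2574, 2619 and 2556 with limma (pseudocount 1, 0.1, and 1 without the filter), and 3817 lower became 5823, 5771 and 5895. For lefamulin against retapamulin, 2672 higher became 4436, 4171 and 4289, and 3017 lower became 1660, 1593, 1539 and 1493. The cause was not tested. With 1 library left out, members called higher with M5 ranged from 7 to 8, and the other member counts did not change. Counts over the other gene lists stayed within 1.5 times in 1020 recomputations and moved further in 36. Of 40 shares of the AP-1 sum, 34 moved by more than the SD when counts replaced FPKM, and that of JUNB with M5 turned direction.

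No pairing of the libraries by replicate number was visible, though weak correlations cannot show that none existed. The 18 same-number correlations ran from -0.14 to 0.18, 3 of them over 0.1, and 5 of 12 libraries correlated best with their own number. With a replicate block the member counts were unchanged (7 and 0, 7 and 1, 7 and 1, 0 and 5, 8 and 0, 8 and 0, higher and lower), and 4022 genes higher with M5 became 4001.

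Precision is limited by 3 libraries a group and, for FOS and FOSB, by 63 to 147 counts per untreated or M5 library.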
